A study of Mus musculus with 2 samples.

Results

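Conventional dendritic cells of mouse marrow were taken as single-cell barcodes that carried dendritic cell and class II transcripts and lacked those of B cells, plasmacytoid dendritic cells and neutrophils. A barcode was a member when it held at least 2 unique molecular identifiers (UMIs, each counting 1 captured RNA molecule) of Xcr1, Clec9a, Cd209a and Flt3 together and at least 5 UMIs of H2-Aa, H2-Ab1 and H2-Eb1 together. It also held at most 1 UMI of Cd79a and Cd79b together and 0 of Siglech, and S100a8 with S100a9 made up under 4% of its UMIs. The rule found 116 members among 15842 kept barcodes, 51 of 7523 in the Mg-TAGelMA library and 65 of 8319 in the Mg library. The genes of the rule chose the members, so their levels are given as a description.

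The cells came from femoral marrow and from the implant surface of mice with an osteoporotic fracture, and were profiled with a droplet kit that reads the 3′ ends of polyadenylated RNA. The Mg-TAGelMA group had intramedullary nails, rods that sit inside the femoral shaft, of magnesium with TAGelMA. The Mg group had magnesium nails, so magnesium was common to both groups. GelMA stands for gelatin methacryloyl, a hydrogel made from gelatin. What TA stands for is not in the labels. The strain, sex, age, time after implantation, number of mice and any pooling of marrow with adherent cells are not given in the sources used here, and each nail is represented by 1 library.

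Conventional dendritic cells take up antigen, process it and present the peptides to T cells on class II molecules, with the invariant chain Cd74 and the peptide-editing molecule H2-DM as helpers. They arise in marrow under the growth factor receptor Flt3 and divide into cDC1, which depend on the transcription factors Irf8 and Batf3, carry the receptors Xcr1 and Clec9a and cross-present to CD8 T cells, and cDC2, which carry lectins such as Cd209a, Clec10a and Mgl2 and present mainly to CD4 T cells. Activated cells of both kinds display the co-stimulatory molecules Cd80 and Cd86 and secrete chemokines that draw T cells and monocytes.

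The libraries differed in ways that bear on every value. There were 7591 barcodes and 79890998 UMIs for Mg-TAGelMA, and 9466 barcodes and 58261391 UMIs for Mg, and the median depth of kept barcodes was 6977 and 3844 UMIs. Members had medians of 12692 UMIs and 3549 detected genes in the Mg-TAGelMA library and 10195 UMIs and 2902 genes in the Mg library, and their counts summed to 740876 and 805353 UMIs. The matrices were counted with Cell Ranger 7.0.1 for Mg-TAGelMA and 5.0.0 for Mg. S100a8 and S100a9 together made up 0.851% of member UMIs with Mg-TAGelMA and 0.142% with Mg, against 10.9% and 3.57% in all other kept barcodes. Among barcodes, 21 sequences occurred in both libraries, 20 of them kept and 0 of them members. A doublet caller marked 2 members with Mg-TAGelMA and 0 with Mg. With 1 library per nail there is no test, and the exact 95% intervals cover counting error alone.

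Members made up 0.678% of kept barcodes with Mg-TAGelMA (exact Clopper-Pearson interval 0.505 to 0.890%) and 0.781% with Mg (0.604 to 0.995%). The ratio of shares was 0.868, with an interval of 0.589 to 1.27 that includes equal shares. The rule counts UMIs, so the share depends on depth. After each barcode was thinned to 2000 UMIs, which left out shallower barcodes, 25 of 7178 Mg-TAGelMA barcodes (0.348%) and 35 of 6891 Mg barcodes (0.508%) were members, a ratio of 0.686 (0.393 to 1.18). At 1000 UMIs the counts were 12 of 7340 and 24 of 7689, a ratio of 0.524 (0.239 to 1.09). At every depth the interval of the ratio included equality. At the edge of the rule, 7 Mg-TAGelMA members and 6 Mg members held exactly the minimum of 2 UMIs of the 4 dendritic cell genes, and 21 barcodes in each library were kept out only because they held 1. For the class II genes, 5 Mg-TAGelMA and 9 Mg members held 5 to 9 UMIs, and 9 Mg-TAGelMA and 8 Mg barcodes were kept out only because they held 3 or 4.

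**Figure D1:**
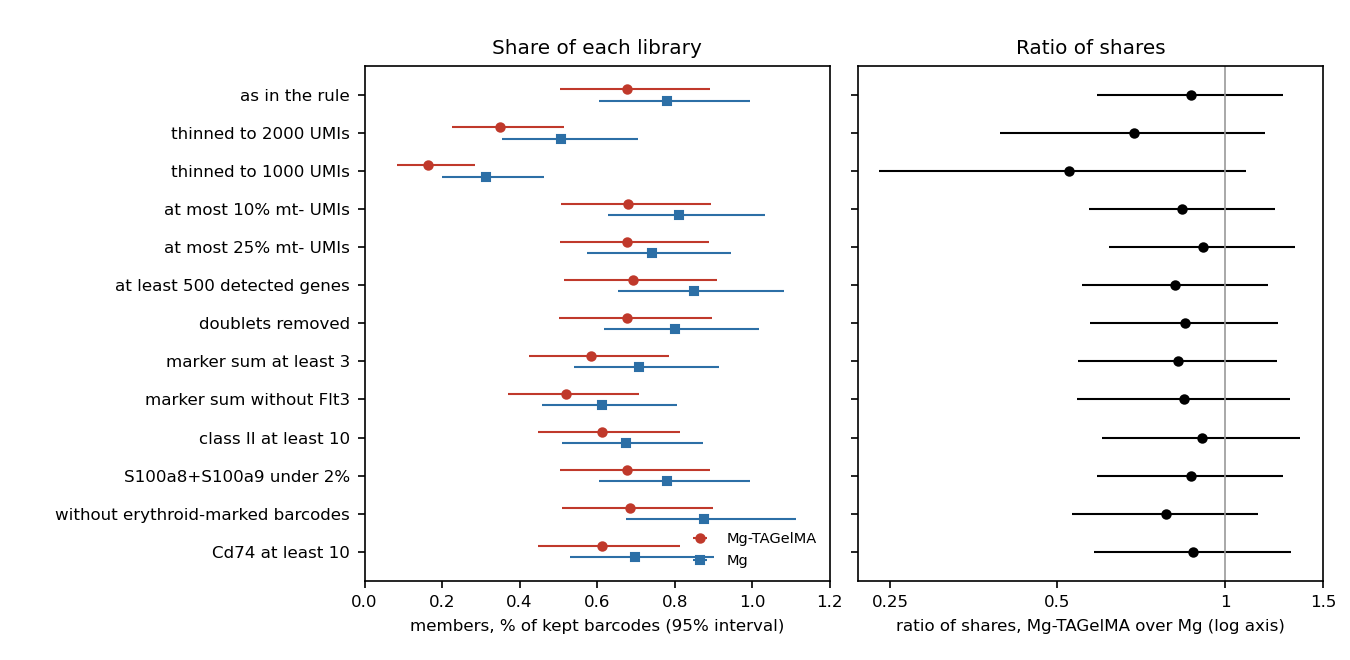
Share of kept barcodes that are members in each library (left, percent, with exact 95% intervals) and the ratio of shares (right, Mg-TAGelMA over Mg, log axis) under the rule and its alternatives. All ratios lie below 1, from 0.524 after thinning to 1000 UMIs upwards, and each interval includes 1.

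The markers of the rule placed most members on the cDC2 side. Cd209a, a C-type lectin of cDC2, was found with 285 UMIs in 40 of 51 Mg-TAGelMA members and with 516 UMIs in 47 of 65 Mg members. Flt3 was found with 98 UMIs in 42 Mg-TAGelMA members and with 157 UMIs in 56 Mg members. Clec9a, a receptor of cDC1 for dead cells, was found with 25 UMIs in 15 Mg-TAGelMA members and with 36 UMIs in 13 Mg members. Xcr1, the chemokine receptor that defines cDC1, had 0 UMIs in the 51 Mg-TAGelMA members, which allows a share of up to 5.88% of members with a UMI, and 15 UMIs in 3 Mg members. H2-Ab1, the class II beta chain, ranged over 1 to 134 UMIs per Mg-TAGelMA member with a median of 38, and over 0 to 205 UMIs per Mg member with a median of 58.

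Members were divided by these markers into cDC1-marked (Xcr1 or Clec9a without Cd209a), cDC2-marked (Cd209a without Xcr1 or Clec9a), those with both and those with Flt3 only. In the Mg-TAGelMA library 5 were cDC1-marked, 30 cDC2-marked, 10 carried both and 6 Flt3 only. In the Mg library 6 were cDC1-marked, 40 cDC2-marked, 7 carried both and 12 Flt3 only. Among members of a single mark, cDC1-marked ones made up 14.3% with Mg-TAGelMA (5 of 35, exact interval 4.81 to 30.3%) and 13% with Mg (6 of 46, 4.94 to 26.3%), so the intervals overlap almost wholly. The Clec9a mark was often a single UMI, in 3 of 5 Mg-TAGelMA and 0 of 6 Mg cDC1-marked members and in 6 of 10 and 3 of 7 of those with both marks. Among the 5 Mg-TAGelMA cDC1-marked members, 1 of 32568 UMIs held 1 UMI of Cd74, 109 of Ly6c2 and 26 of Top2a. Another, of 8639 UMIs, held 1 UMI of Irf8, 12 of Cst3, 59 of Lyz2 and 7 of C1qb. In each the mark was a single Clec9a UMI, and these other values go against it.

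**Figure D2:**
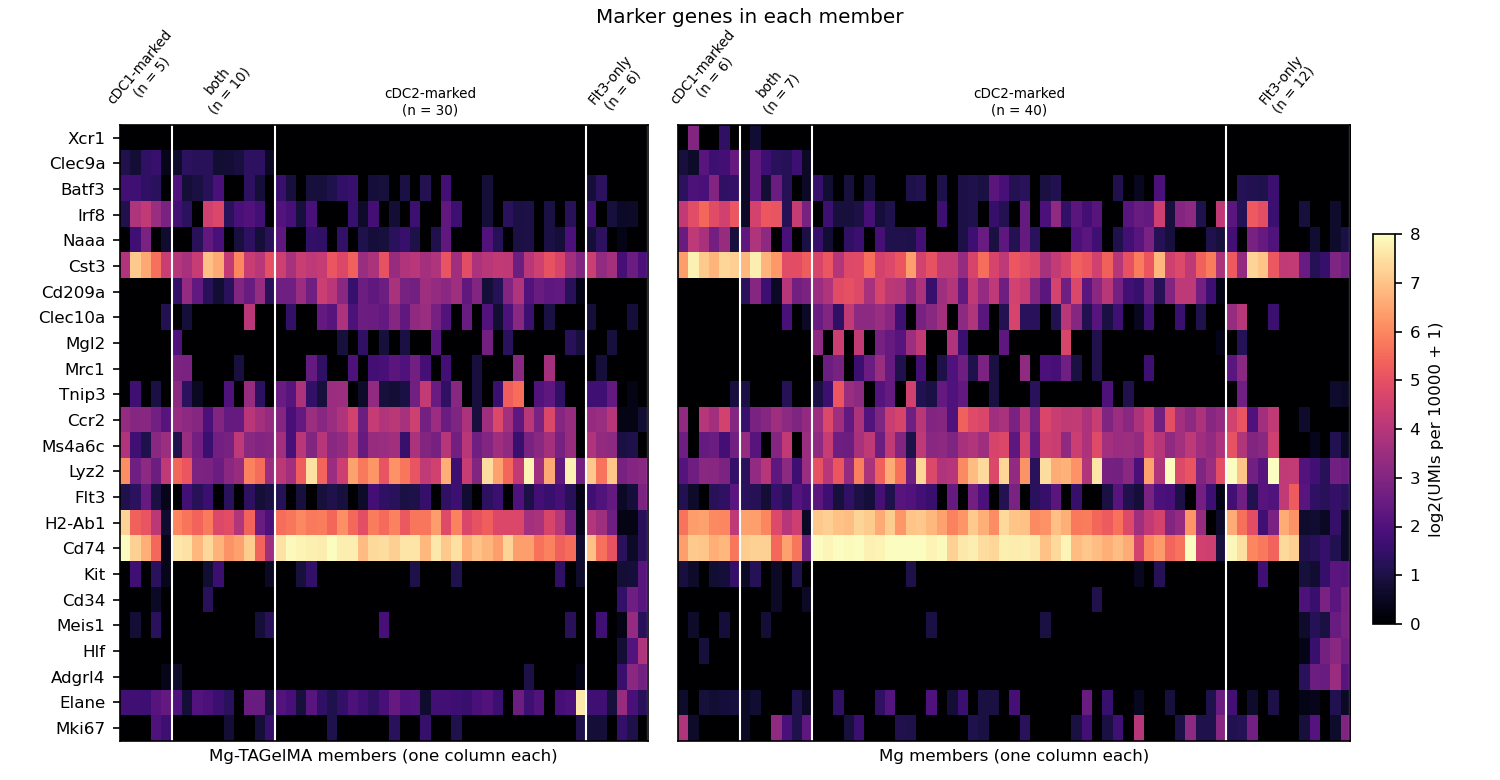
Level of 24 genes (rows) in each member (columns), as log2 of UMIs per 10000 plus 1, for 51 Mg-TAGelMA members (left) and 65 Mg members (right) divided by subset marks. Cst3 and Irf8 are brightest in the cDC1-marked columns and in some of those with both marks, Clec10a and Mrc1 among cDC2-marked columns, and Kit, Cd34, Meis1, Hlf and Adgrl4 in a few Flt3-only columns at the right of each panel.

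Genes outside the rule were set against the label. Cd74, the invariant chain, was found in every member, at 10081 CPM (summed counts scaled to a total of 1000000 UMIs) with Mg-TAGelMA and 11275 CPM with Mg. All other kept barcodes had 880 CPM with Mg-TAGelMA and 1239 CPM with Mg. Per member, Cd74 ranged over 0.307 to 275 UMIs per 10000 with a median of 117 in Mg-TAGelMA members and over 0.482 to 313 with a median of 137 in Mg members. Fewer than 10 Cd74 UMIs were found in 5 Mg-TAGelMA and 7 Mg members. Of these, 3 Mg-TAGelMA and 5 Mg members, all Flt3-only, carried at least 20 UMIs of stem and progenitor markers. They had 368 CPM of Hlf with Mg-TAGelMA and 349 CPM with Mg, 498 and 438 CPM of Adgrl4, and 108 and 122 CPM of Cd74. Their markers go against the label, and they are called stem-marked members here. They stay in the sums of members. A Cd209a-marked Mg-TAGelMA member held 675 UMIs of Elane, a protease of early granulocytes, and 77.1% of the Elane of all Mg-TAGelMA members.

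Marker sums of other lineages were set beside those of other barcodes. Plasmacytoid dendritic cell markers summed to 0.0796% of member UMIs with Mg-TAGelMA and 0.0741% with Mg, against 1.26% and 0.961% in barcodes with at least 2 UMIs of Siglech. B cell markers summed to 0.0371% in Mg-TAGelMA members and 0.0565% in Mg members, with none of the 11 at 0. T and NK markers summed to 0.0279% in Mg-TAGelMA members and 0.00373% in Mg members, with 2 of 12 at 0 in each. Macrophage markers summed to 0.0266% in Mg-TAGelMA members and 0.0237% in Mg members, with 2 of 11 at 0 in each, against 0.0107% and 0.00859% over all kept barcodes. Monocyte markers, several of which cDC2 also express, summed to 0.762% in Mg-TAGelMA members and 0.716% in Mg members. In monocyte-marked barcodes, which were chosen by 3 of the 11, they summed to 1.95% and 2.72%. In cDC2-marked members they summed to 0.991% with Mg-TAGelMA and 1.004% with Mg, and in cDC1-marked members to 0.568% and 0.196%. With Mg-TAGelMA, Ms4a6c stood at 817 CPM in cDC2-marked members and 862 CPM in monocyte-marked barcodes, and Lyz2 at 5347 and 9609 CPM. With Mg the values were 1252 and 1517 CPM, and 5678 and 18439 CPM. The part of monocytes among cDC2-marked members was not tested. Neutrophil markers summed to 1.42% in Mg-TAGelMA members and 0.253% in Mg members, against 1.44% and 0.368% in monocyte-marked barcodes of the same libraries. Erythroid markers summed to 0.0363% with Mg-TAGelMA and 0.0910% with Mg, and basophil and mast cell markers to 0.0186% and 0.00608%. Stem and progenitor markers summed to 0.0451% in Mg-TAGelMA members and 0.0494% in Mg members, against 0.0348% and 0.0458% over all kept barcodes.

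Members were compared with monocyte-marked barcodes within each library, where both sides were counted by the same software version. Monocyte-marked barcodes (431 in the Mg-TAGelMA library, 242 in the Mg library) held at least 3 UMIs of Ly6c2 and Ccr2 together and at least 1 of Csf1r, were no members, and passed the same limits on Siglech, B cell and neutrophil genes. A size rule stood in for a test: the exact conditional binomial interval of the ratio had to lie wholly beyond 2-fold, with at least 50 CPM on the higher side. In both libraries 34 of 3040 genes (1.12%) were higher in members and 36 (1.18%) lower, of which 5 and 1 were genes that chose the barcodes. The highest outside the rules included Tnip3, a binding partner of the NF-kB inhibitor A20, with 333 CPM in members against 25.6 CPM in monocyte-marked barcodes of the Mg-TAGelMA library (13-fold, interval 10.7 to 16.0) and 154 against 13 CPM in the Mg library (11.8-fold, 7.85 to 18.4). Ciita, the master regulator of class II transcription, was 18.0-fold and 7.64-fold higher in Mg-TAGelMA and Mg members than in their monocyte-marked barcodes, and Cd74 19.3-fold and 7.60-fold. Clec10a, a lectin of cDC2, was 11.9-fold and 6.21-fold higher, the mannose receptor Mrc1 9.43-fold and 6.69-fold, and Batf3 6.49-fold and 7.20-fold. H2-DMb1, a chain of H2-DM, was 8.72-fold and 4.83-fold higher. Klrd1 was 10.6-fold and 8.60-fold higher, Slamf7 7.48-fold and 7.95-fold, and Ckb 5.70-fold and 6.17-fold.

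Genes lower in members than in monocyte-marked barcodes included Vcan, Fn1 and Chil3. Vcan, the matrix proteoglycan versican, stood at 2.70 CPM in members against 285 CPM in monocyte-marked barcodes of the Mg-TAGelMA library, and at 7.45 against 250 CPM in the Mg library. Fn1, fibronectin, stood at 99.9 against 1042 CPM and at 200 against 1639 CPM. Chil3, a chitinase-like protein of monocytes, stood at 339 against 2563 CPM and at 95.6 against 615 CPM. Msr1, a scavenger receptor, was 16.0-fold lower in the Mg-TAGelMA library and 10.2-fold lower in the Mg library, Apoc2 18.1-fold and 35-fold, complement C3 8.08-fold and 9.06-fold, and coagulation factor F10 9.72-fold and 19.0-fold. Lyz2, lysozyme, was 2.47-fold and 4.51-fold lower in members. Of 11 monocyte markers, 3 (Ly6c2, Ccr2 and Csf1r) chose the monocyte-marked barcodes. Of the other 8, 4 were past the size rule lower in both libraries and 0 higher. Of 14 measured class II pathway genes outside the rule, 4 were higher and 0 lower, with medians on the log2 scale of 0.97 with Mg-TAGelMA and 0.68 with Mg, against −0.11 and −0.06 over all genes measured.

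Barcodes with Siglech (88 in the Mg-TAGelMA library, 49 in the Mg library) gave the contrast with plasmacytoid dendritic cells. In both libraries 75 of 3165 genes (2.37%) were higher in members and 133 (4.2%) lower, of which 4 and 1 were genes that chose the barcodes (99 and 114 genes with TMM scaling, which trims extreme genes). Clec4b1, a C-type lectin, had 93.1 CPM in members and 0 UMIs in Siglech-marked barcodes of the Mg-TAGelMA library, at least 33.1-fold higher when the count of 0 is set to 3. In the Mg library Clec4b1 stood at 128 against 4.74 CPM. Naaa, a lysosomal amidase abundant in cDC1, was 11.2-fold higher in Mg-TAGelMA members and 10.1-fold in Mg members. Cst3, the protease inhibitor cystatin C, was 2.50-fold and 2.72-fold higher, Id2 4.08-fold and 3.15-fold, Apoe 8.5-fold and 8.43-fold, and Atf3 9.59-fold and 8.33-fold. Lower in members were Cox6a2, a respiratory chain subunit marking plasmacytoid cells, with 2.70 against 968 CPM in the Mg-TAGelMA library and 0 against 645 CPM in the Mg library, and Ccr9, a gut-homing chemokine receptor, with 8.10 against 798 CPM and 2.48 against 398 CPM. Tcf4, the transcription factor that sets plasmacytoid identity, was 18.5-fold lower in Mg-TAGelMA members and 14.3-fold lower in Mg members, and Irf8 6.74-fold and 4.53-fold. Of 11 plasmacytoid markers, 9 were lower in members in both libraries and 0 higher.

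The subset marks were next read against genes they did not use. In both libraries 8 of 2954 genes (0.271%) were higher in cDC1-marked than in cDC2-marked members and 15 (0.508%) lower, of which Clec9a and Cd209a were used by the marks. With TMM scaling the counts were 5 and 34, and Fmnl2, Anxa6 and Tmsb10 fell short of the rule. The other 7 higher genes were Ifi205, Irf8, Id2, Fmnl2, Anxa6, Cst3 and Tmsb10. Irf8 had 978 CPM in the 5 cDC1-marked and 91.6 CPM in the 30 cDC2-marked members of the Mg-TAGelMA library (10.7-fold, interval 7.13 to 16.3), and 2629 CPM in the 6 and 344 CPM in the 40 of the Mg library (7.65-fold, 6.22 to 9.43). Id2, an inhibitor of E proteins needed by cDC1, was 7.21-fold and 20-fold higher, and the interferon-inducible Ifi205 8.38-fold and 39.9-fold. Cst3 stood at 5611 CPM in cDC1-marked and 1789 CPM in cDC2-marked members of the Mg-TAGelMA library, and at 13293 and 3089 CPM in the Mg library. Batf3 had a ratio of 2.19 in the Mg-TAGelMA library, short of the size rule (interval 0.950 to 4.8), and was 4.54-fold higher in the Mg library (2.53 to 8.15). Naaa likewise had a ratio of 1.64 (0.854 to 3.0) and was 5.25-fold higher (3.73 to 7.41). Of 12 measured genes of the cDC1 list (22 in the table), 3 were higher in both libraries and 0 lower. The medians on the log2 scale were 1.18 with Mg-TAGelMA and 2.82 with Mg, against 0.34 and 0.23 over all genes measured. A count of 0 was set to 3 in these medians, so genes absent from the few cDC1-marked barcodes can score as higher. In the Mg library Isg15, with 0 against 7 UMIs, had a log2 ratio of 0.85.

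Genes lower in cDC1-marked members included lectins, an integrin and lysozyme. Clec10a had 43.0 CPM in cDC1-marked and 323 CPM in cDC2-marked members of the Mg-TAGelMA library, and 0 UMIs against 424 CPM in the Mg library. Mrc1 had 0 UMIs in the cDC1-marked members of each library, against 154 CPM in the cDC2-marked members of the Mg-TAGelMA library and 185 CPM in those of the Mg library, which is at least 4.76-fold and at least 6.19-fold lower. Itgam, the CD11b integrin chain, was found with 1 UMI in the cDC1-marked members of each library and was 15.8-fold lower in the Mg-TAGelMA library (interval 2.73 to 634) and 23.3-fold lower in the Mg library (4.09 to 931). With at least 2 UMIs asked of each mark, Itgam and Mrc1 fell short of the rule. Apoe had 32.3 against 916 CPM in the Mg-TAGelMA library and 0 UMIs against 367 CPM in the Mg library. Tnip3 was 10.1-fold and 27.1-fold lower, Ifitm3, an antiviral membrane protein, 5.42-fold and 17.4-fold, and Lyz2 3.38-fold and 11.4-fold. Of 19 measured genes of the cDC2 list (24 in the table), 3 were lower in both libraries and 0 higher. The medians on the log2 scale were −0.59 with Mg-TAGelMA and −2.07 with Mg, and the floor of 3 counts can raise them too. The cDC1-marked sums rest on 5 and 6 barcodes, so 1 barcode can carry a large part of a value. The Mg-TAGelMA sums include the barcodes described above whose other genes go against the cDC1 mark.

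**Figure D3:**
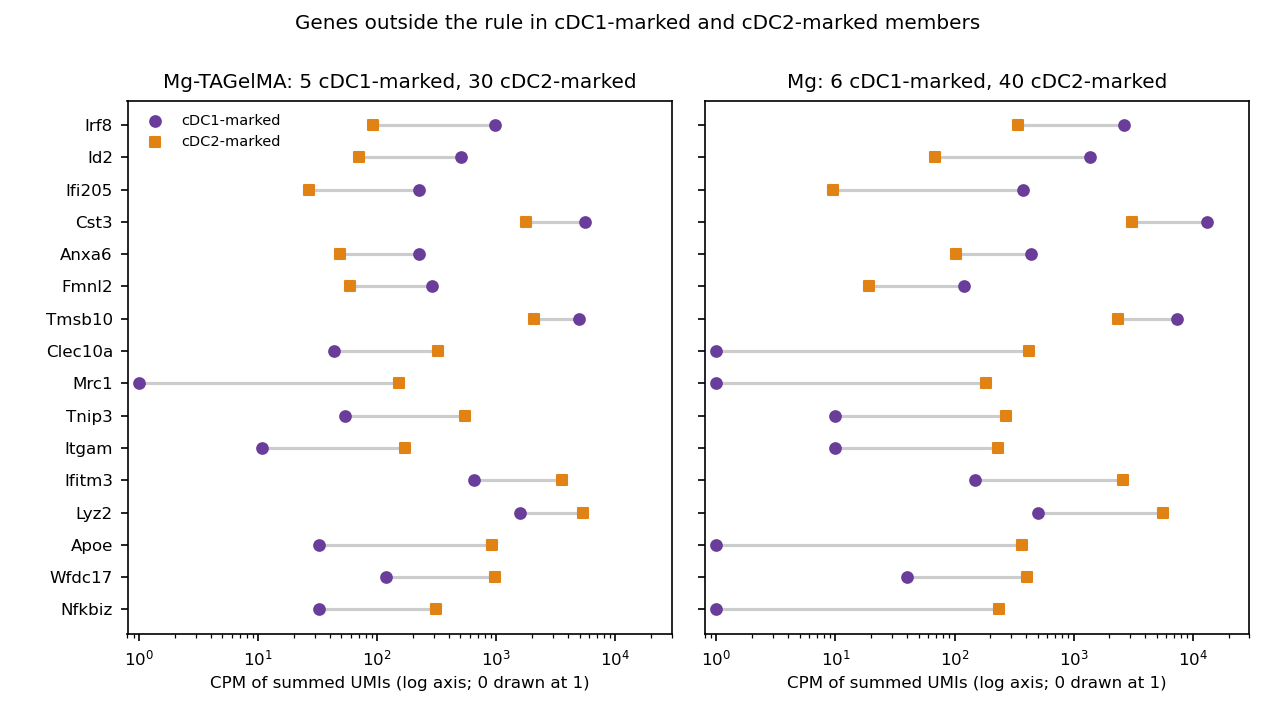
CPM of summed UMIs (log axis, 0 drawn at 1) of 16 genes outside the marks in cDC1-marked members (circles) and cDC2-marked members (squares), for the Mg-TAGelMA library (left) and the Mg library (right). Irf8, Id2, Ifi205, Cst3, Anxa6, Fmnl2 and Tmsb10 lie higher in cDC1-marked members in both panels, with Irf8 at 978 against 91.6 CPM and 2629 against 344 CPM, and the other 9 lie lower.

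The marks and the Irf8 level did not always go together. At least 10 Irf8 UMIs were found in 6 of 51 Mg-TAGelMA members (11.8%, interval 4.44 to 23.9%) and 16 of 65 Mg members (24.6%, 14.8 to 36.9%), a ratio of 0.478 whose interval of 0.153 to 1.29 includes equality. After thinning to 5000 UMIs, at least 5 Irf8 UMIs were found in 6 of 51 and 15 of 62 members. Without thinning, those of the Mg-TAGelMA library were 4 of the 5 cDC1-marked members and 2 of the 10 with both marks. In the Mg library they were all 6 cDC1-marked members, 5 of the 7 with both marks, 3 of the 40 cDC2-marked and 2 of the 12 Flt3-only. The Irf8-rich members include a Mg-TAGelMA cDC1-marked barcode with 1 Cd74 UMI and 109 of Ly6c2. They also include a Mg cDC2-marked barcode with 3 Cd74 UMIs and 116 of Ly6c2. The Irf8-rich members had 7281 CPM of Cst3 with Mg-TAGelMA and 9899 CPM with Mg, and 917 and 908 CPM of Lyz2. The remaining members without stem markers (42 in the Mg-TAGelMA library, 44 in the Mg library) had 1877 and 3314 CPM of Cst3 and 5069 and 7348 CPM of Lyz2. Mrc1 was at 0 UMIs in the Irf8-rich members of each library and at 146 and 213 CPM in the remaining ones. These cells were chosen by their Irf8 level after it was seen, so the levels are a description.

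Members were then compared between the nails. Over all genes, 509 of 3895 (13.1%) were past the size rule higher in Mg-TAGelMA members and 40 (1.03%) lower. The ratios followed the length of annotated intron. The median log2 ratio of tested genes was −0.21 below 0.5 kb of intron, −0.18 from 0.5 to 2 kb, −0.24 from 2 to 8 kb, −0.01 from 8 to 64 kb and 1.18 above 64 kb. When short-intron genes, those of 8 kb or less, were scaled to their own total, 58 of 1585 (3.66%) were higher and 19 (1.2%) lower. Higher genes made up 92.7% of all calls and 75.3% of the short-intron calls. For any gene, the nails cannot be told apart from the counting software, the depth or whatever else differed between the libraries. Because the ratios followed intron length, genes with at most 8 kb are described first. The kilobases of intron are given for the others. The 10 highest ratios over all genes included 9 with more than 64 kb of intron, such as Kcnq5, Lrmda and Ext1, and F5 with 61.0 kb.

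**Figure D4:**
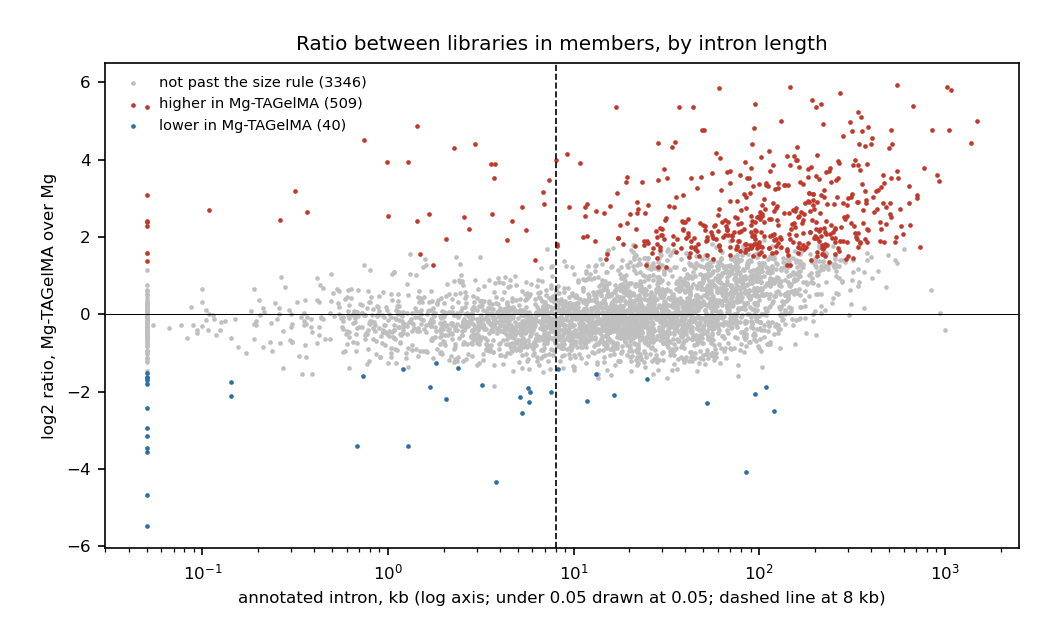
Log2 ratio of each tested gene in members, Mg-TAGelMA over Mg, against its annotated intron length in kilobases (log axis, dashed line at 8 kb). Of the 509 genes past the size rule higher in Mg-TAGelMA, 472 lie to the right of the line, and of the 40 lower ones 30 lie to its left.

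Cxcl10, Cxcl9, Ccl2, Ccl4, Cxcl2 and Il1b, which are chemokines apart from the cytokine Il1b, were higher in Mg-TAGelMA members. Of 16 measured cytokine and chemokine genes, 6 were past the size rule higher and 0 lower over all genes (8 and 0 with short-intron scaling), with a median log2 ratio of 1.81, against 0.01 over all 8843 genes measured. Over all 8843 genes measured, 509 were higher and 40 lower, and with short-intron scaling 58 and 19 of 2986. These counts stand beside the list counts that follow. Ccl3, with 175 CPM in Mg-TAGelMA and 72.0 CPM in Mg members, and Osm, with 76.9 and 27.3 CPM, were past the rule with the short-intron scaling alone. Cxcl10, the ligand of Cxcr3 that draws T cells, had 113 UMIs in 18 of 51 Mg-TAGelMA members (153 CPM) and 0 UMIs in 65 Mg members, at least 40.9-fold higher with the floor of 3 counts over the Mg members. Per member it ranged up to 20.3 UMIs per 10000 in the Mg-TAGelMA library. Cxcl9, a second Cxcr3 ligand, had 53 UMIs in 7 Mg-TAGelMA members (71.5 CPM) and 5 UMIs in 1 Mg member (6.21 CPM), 11.5-fold higher (interval 4.64 to 36.9). Most members of each library carried no UMI of either gene, so these sums came from a minority of cells. After thinning to 5000 UMIs, 29.4% of Mg-TAGelMA members held Cxcl10 against 3.73% of T-marked barcodes of the same library, which held at least 2 UMIs of Cd3d, Cd3e and Cd3g and had a median depth of 8067 UMIs (5588 in the Mg library). Thinning left out 3 Mg members and no Mg-TAGelMA member. Without thinning the Cxcl10 share of Mg-TAGelMA T-marked barcodes was 6.80%. For Cxcl9 the thinned shares were 11.8% of Mg-TAGelMA members and 0% of T-marked barcodes. The sum of Cxcl10 lay mostly in cDC2-marked members, with 267 CPM there, 21.5 CPM in cDC1-marked members, 34.2 CPM in those with both marks and 53.6 CPM in Flt3-only members of the Mg-TAGelMA library. In all other kept barcodes Cxcl10 stood at 24.0 CPM with Mg-TAGelMA and 1.97 CPM with Mg (12.2-fold), and Cxcl9 at 1.40 and 0.644 CPM (2.18-fold).

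The promoters of this pair of chemokine genes are shown because both genes were higher in Mg-TAGelMA members. The sequences run from 250 bases before to 50 bases after each annotated start, on the strand of the gene, from RefSeq (GRCm38.p6), at chr5:92348840-92349139 on the minus strand for Cxcl10 and chr5:92328030-92328329 on the minus strand for Cxcl9. Capitals mark matches on either strand to a pair of patterns. The first is GAAA, any 2 bases and GAAA again, as in interferon-stimulated response elements, and the other is GGGA, any 4 bases and CC, as in many NF-kB sites.
Cxcl10: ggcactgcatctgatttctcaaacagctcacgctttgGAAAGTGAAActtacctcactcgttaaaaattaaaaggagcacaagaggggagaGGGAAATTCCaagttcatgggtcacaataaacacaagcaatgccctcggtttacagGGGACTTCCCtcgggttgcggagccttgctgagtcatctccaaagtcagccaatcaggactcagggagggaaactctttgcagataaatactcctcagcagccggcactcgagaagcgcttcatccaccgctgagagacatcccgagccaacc
Cxcl9: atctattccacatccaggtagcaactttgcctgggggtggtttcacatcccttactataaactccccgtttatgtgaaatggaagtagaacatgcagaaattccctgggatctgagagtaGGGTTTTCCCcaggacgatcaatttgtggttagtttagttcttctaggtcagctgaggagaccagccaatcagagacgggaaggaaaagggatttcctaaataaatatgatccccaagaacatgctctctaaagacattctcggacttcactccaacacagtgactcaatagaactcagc
The Cxcl10 window held the first pattern once, beginning 213 bases before the start, and the other at 159 and 103 bases before it, where the nearer match reads on both strands. The Cxcl9 window held the NF-kB pattern once, on the opposite strand, beginning 130 bases before the start, and the first pattern was not among its letters. Of 32851 mouse promoter windows of the same length, 3.44% held the first pattern and 20.7% the other on either strand. A match describes the letters and is not a measured site.

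Ccl2, which attracts monocytes through Ccr2, had 125 UMIs in 23 Mg-TAGelMA members (169 CPM) and 6 UMIs in 5 Mg members (7.45 CPM), 22.6-fold higher (interval 10.1 to 62.9). Other kept barcodes had 39.0 CPM with Mg-TAGelMA and 5.17 CPM with Mg (7.54-fold), and 1.87% of Mg-TAGelMA T-marked barcodes held it after thinning, against 23.5% of Mg-TAGelMA members. Monocyte-marked barcodes had 222 CPM of Ccl2 with Mg-TAGelMA and 74.0 CPM with Mg, more than the members of the same library. Ccl4, an inflammatory chemokine, had 752 CPM in Mg-TAGelMA members and 140 CPM in Mg members (5.36-fold, 4.37 to 6.62), with a ratio of 8.95 in other kept barcodes. The inflammatory cytokine Il1b had 329 CPM in Mg-TAGelMA and 62.1 CPM in Mg members (5.30-fold, 3.90 to 7.34), with 27.4 in other kept barcodes. Cxcl2, which attracts neutrophils, had 78.3 and 14.9 CPM (5.25-fold, 2.79 to 10.8). Other kept barcodes held more Cxcl2 than members, 518 CPM with Mg-TAGelMA and 86.2 CPM with Mg. Monocyte-marked barcodes had 140 CPM of Cxcl2 with Mg-TAGelMA and 167 CPM with Mg, the opposite order. Il1b was found in 51% of Mg-TAGelMA members and 11.3% of Mg members after thinning, and in 21.6% and 1.76% of T-marked barcodes, so T-marked barcodes too held it more often with Mg-TAGelMA. The neutrophil marker sums given above, 1.42% of member UMIs with Mg-TAGelMA and 0.253% with Mg, moved in the same direction. Of 12 measured neutrophil markers 9 were higher in Mg-TAGelMA members, beside 509 of all 8843 genes measured. The part of neutrophil RNA in the Il1b and Cxcl2 values was not tested.

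Ccl5, a chemokine of T and NK cells and of activated dendritic cells, had 128 CPM in Mg-TAGelMA members and 8.69 CPM in Mg members (14.8-fold, interval 6.89 to 37.7). A single member held 44.2% of its Mg-TAGelMA UMIs, the gene ran at 2179 CPM in Mg-TAGelMA and 1599 CPM in Mg T-marked barcodes, and T and NK markers summed to 0.0279% of member UMIs with Mg-TAGelMA and 0.00373% with Mg. The part of T cell RNA in the Ccl5 value was not tested. Ccl6 and Ccl9, chemokines of myeloid cells, had 448 and 316 CPM in Mg-TAGelMA members and 456 and 361 CPM in Mg members, ratios of 0.983 and 0.874. The receptor Ccr2 had 788 CPM in Mg-TAGelMA and 1031 CPM in Mg members (0.765). Hcar2, a receptor for niacin and beta-hydroxybutyrate, had 74.2 and 8.69 CPM (8.54-fold, 3.88 to 22.2), and 12.1-fold in other kept barcodes.

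Metallothioneins, which bind zinc and other metals, were higher in Mg-TAGelMA members. Mt1 had 471 UMIs in 44 Mg-TAGelMA members (636 CPM) and 106 UMIs in 28 Mg members (132 CPM), 4.83-fold higher (interval 3.91 to 6.02). Mt2 had 59 UMIs in 21 Mg-TAGelMA members (79.6 CPM) and 7 UMIs in 6 Mg members (8.69 CPM), 9.16-fold higher (4.18 to 23.8). In all other kept barcodes the ratios were 2.84 for Mt1 and 1.26 for Mt2. Within groups, Mt1 stood at 455 CPM with Mg-TAGelMA and 167 CPM with Mg in monocyte-marked barcodes. It stood at 65.7 and 4.74 CPM in Siglech-marked and at 163 and 7.03 CPM in T-marked barcodes. Mt2 stood at 54.3 and 8.97 CPM, 19.7 and 4.74 CPM, and 20.7 and 2.81 CPM in the same groups. Both genes were thus also higher with Mg-TAGelMA in each of these groups. Per member, Mt1 had a median of 4.63 UMIs per 10000 with a highest value of 42.6 in the Mg-TAGelMA library and a median of 0 with a highest value of 16.9 in the Mg library, so the ranges overlapped. Among cDC2-marked members Mt1 stood at 957 CPM with Mg-TAGelMA and 225 CPM with Mg, and among cDC1-marked members at 312 CPM and 0 UMIs. Of 13 measured genes of the list that joins metallothioneins with magnesium channels and transporters, 3 were higher and 0 lower. Over all 8843 genes measured, 509 were higher and 40 lower. The third higher gene of the list was Cnnm2, a magnesium transport protein with 113 kb of intron, at 116 CPM in Mg-TAGelMA and 6.21 CPM in Mg members. Cnnm2 was higher with Mg-TAGelMA outside the members too, at 99.0 against 7.14 CPM in other kept barcodes. It stood at 125 against 5.38 CPM in monocyte-marked and 53.8 against 4.57 CPM in T-marked barcodes. The magnesium channel Trpm7 had 79.6 and 50.9 CPM (1.56-fold, 73.4 kb), Nipa2 163 and 59.6 CPM (2.74-fold, 24.1 kb) and Magt1 58.0 and 107 CPM (0.543, 39.2 kb), all within the size rule.

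**Figure D5:**
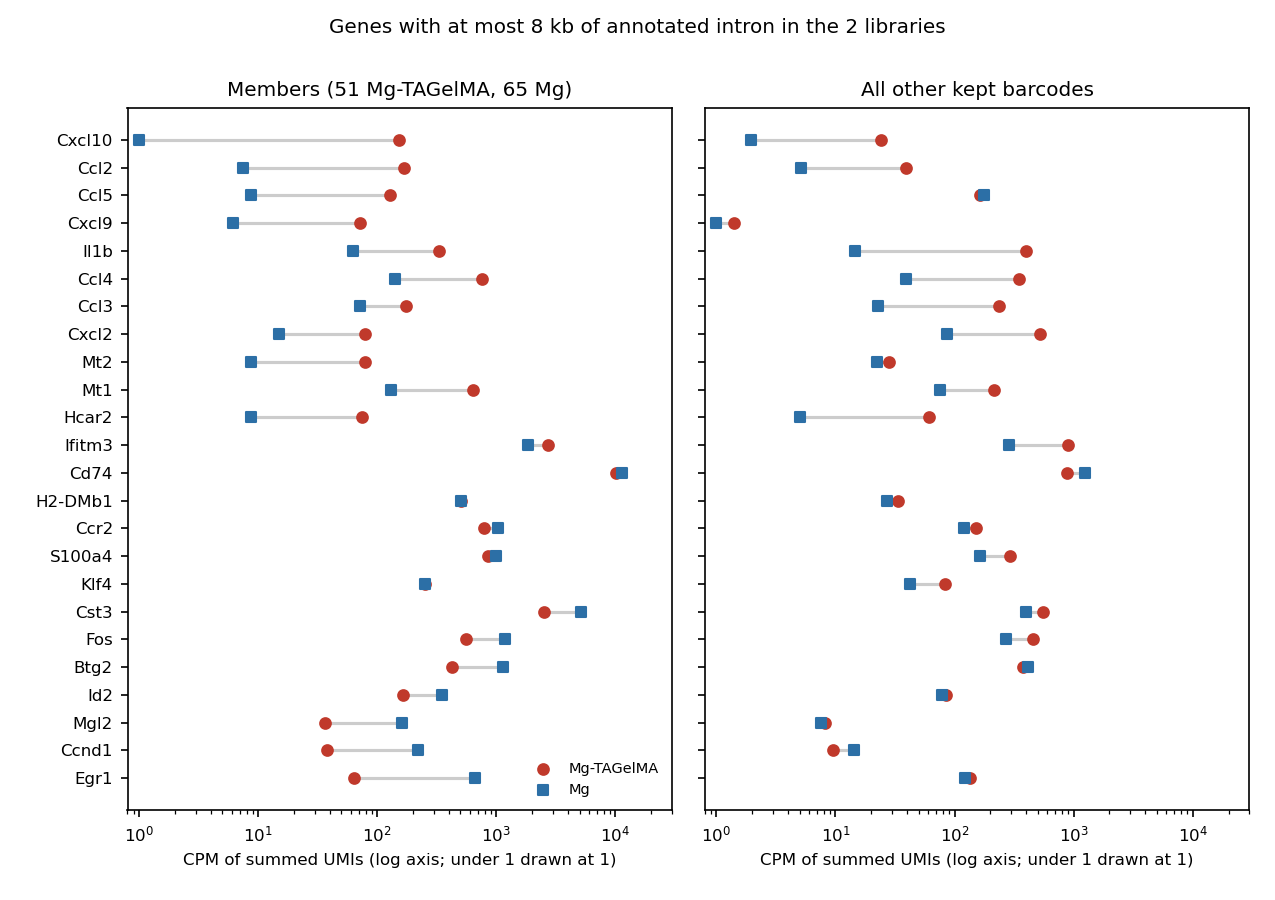
CPM of summed UMIs (log axis, values under 1 drawn at 1) of 24 genes with at most 8 kb of intron in Mg-TAGelMA (circles) and Mg (squares), for members (left) and all other kept barcodes (right). In members Cxcl10 stands at 153 against 0 CPM and Egr1 at 63.4 against 667 CPM, while Cd74 and H2-DMb1 nearly coincide, and in other barcodes Egr1 stands at 134 against 122 CPM.

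Cd80, Cd83, Cd86, Cd274 and Ccl5, from the list of activated and migratory dendritic cells, were higher in Mg-TAGelMA members, and all but Ccl5 have more than 8 kb of intron. Of 10 measured genes of the activated and migratory list, 5 were higher and 0 lower, with a median log2 ratio of 2.81. Over all 8843 genes measured, 509 were higher and 40 lower. Cd86 had 810 CPM in Mg-TAGelMA and 44.7 CPM in Mg members (18.1-fold, 58.6 kb of intron), Cd80 101 and 2.48 CPM (37.1 kb), Cd83, a surface glycoprotein of mature cells, 217 and 31.0 CPM (7.0-fold, 15.8 kb), and Cd274, the checkpoint ligand PD-L1, 101 and 2.48 CPM (17.0 kb). In other kept barcodes the ratios were 21.8 for Cd86, 25.9 for Cd80, 5.78 for Cd83 and 7.26 for Cd274, so the same genes were also higher outside the members. Ccr7, the receptor that guides mature cells to lymph nodes, was low in cDC2-marked members, at 8.08 CPM with Mg-TAGelMA and 2.37 CPM with Mg. Members with both marks had 54.7 and 0 CPM of Ccr7, cDC1-marked ones 10.7 and 0 CPM, and Flt3-only ones 7.66 and 5.66 CPM. Among transcription factors, Relb had 101 CPM in Mg-TAGelMA and 8.69 CPM in Mg members (11.6-fold, 19.3 kb), Bcl6 381 and 43.5 CPM (8.76-fold, 17.1 kb) and Nfil3 131 and 32.3 CPM (4.06-fold, 11.8 kb). The part of intron counting in these values was not tested.

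Class II pathway genes outside the rule stayed within the size rule. Of 15 measured ones, 0 were past it in either direction, with a median log2 ratio of −0.16. Cd74 had a ratio of 0.894 (interval 0.867 to 0.922) and H2-DMb1 stood at 501 CPM in Mg-TAGelMA and 509 CPM in Mg members (0.984, 0.852 to 1.13). The thiol reductase Ifi30 had 626 and 545 CPM (1.15), the protease Ctss 776 and 744 CPM (1.04), and Ciita 83.7 and 185 CPM (0.452, 0.331 to 0.612). The promoter of H2-DMb1 (RefSeq, GRCm38.p6, chr17:34152941-34153240, plus strand) is shown as the class II pathway promoter, with the match to CCAAT on the opposite strand, the letters of the Y box, in capitals.
H2-DMb1: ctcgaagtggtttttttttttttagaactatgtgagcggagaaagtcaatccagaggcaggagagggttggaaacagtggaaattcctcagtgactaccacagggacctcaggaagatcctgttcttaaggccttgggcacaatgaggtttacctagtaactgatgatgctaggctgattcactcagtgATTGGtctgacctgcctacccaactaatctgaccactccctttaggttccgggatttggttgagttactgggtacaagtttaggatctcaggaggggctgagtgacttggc
The match begins 61 bases before the annotated start, and 37.4% of all promoter windows held CCAAT on either strand. Class I and cross-presentation genes had a median log2 ratio of −0.27, with 1 of 19 measured genes higher, Nlrc5 (84.4 kb of intron), and 0 lower. B2m, the class I light chain, had 935 CPM in Mg-TAGelMA and 1327 CPM in Mg members (0.705).

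Irf8 was the gene of the cDC1 list past the size rule. Of 18 measured genes of the cDC1 list, 1 was past the size rule lower and 0 higher, with a median log2 ratio of −0.73. Irf8 had 218 UMIs in 34 Mg-TAGelMA members (294 CPM) and 685 UMIs in 48 Mg members (851 CPM), 2.89-fold lower (interval 2.48 to 3.38). In other kept barcodes the Irf8 ratio was 0.837. Irf8 was also lower with Mg-TAGelMA in monocyte-marked barcodes, at 310 against 493 CPM, and in Siglech-marked ones, at 1984 against 3856 CPM. T-marked barcodes went the other way, with 80.1 CPM in Mg-TAGelMA and 46.4 CPM in Mg. The median Irf8 level per member was 0.983 UMIs per 10000 with Mg-TAGelMA and 1.73 with Mg, with highest values of 25.4 and 42.6. Naaa had 105 and 262 CPM (0.402, 0.306 to 0.523) and Id2 165 and 351 CPM (0.469, 0.376 to 0.581), neither past the size rule. Cst3 had 2513 and 5098 CPM (0.493, 0.466 to 0.521). Monocyte-marked barcodes had 1302 and 1815 CPM of Cst3 and Siglech-marked ones 1007 and 1872 CPM, while T-marked ones had 249 and 108 CPM. Within cDC2-marked members alone the log2 ratios were −1.91 for Irf8, −0.79 for Cst3, −0.53 for Naaa and 0.03 for Id2. The Irf8 value there rested on few barcodes: of 145 Irf8 UMIs in the 40 cDC2-marked Mg members, 87 lay in the 3 with at least 10, and the median was 1 UMI in each library. Of those 3, 1 barcode of 35531 UMIs held 60 Irf8 UMIs. It also held 116 UMIs of Ly6c2, 27 of Mki67 and 31 of Top2a, but 3 of Cd74 and 1 of Cd209a, which goes against its cDC2 mark. Without those 3, chosen after their values were seen, Irf8 stood at 91.6 CPM in cDC2-marked Mg-TAGelMA members and 164 CPM in cDC2-marked Mg members, a ratio of 0.558 (interval 0.354 to 0.867) that is within the size rule. Irf8-rich members numbered 6 of 51 with Mg-TAGelMA and 16 of 65 with Mg, and the part of that count in the Cst3, Naaa and Id2 ratios was not tested.

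The cDC2 list had a median log2 ratio of 0.00, with 0 of 20 measured genes higher and 1 lower. Klf4, a transcription factor of cDC2 subsets, stood at 251 CPM in Mg-TAGelMA and 252 CPM in Mg members (0.996). S100a4 stood at 857 and 987 CPM (0.868) and the Fc receptor gamma chain Fcer1g at 1253 and 1244 CPM (1.01). The lower gene was Mgl2, a galactose-binding lectin, with 27 UMIs in 11 Mg-TAGelMA members (36.4 CPM) and 130 UMIs in 15 Mg members (161 CPM), 4.43-fold lower (interval 2.91 to 6.98), against a ratio of 1.09 in other kept barcodes. The numbers of members with a UMI were close, and the UMIs per positive member differed. Mgl2 was also lower with Mg-TAGelMA than with Mg in monocyte-marked barcodes, at 6.36 against 15.3 CPM. In Siglech-marked ones it stood at 9.38 against 19.0 CPM, and in T-marked ones at 2.49 against 0.703 CPM. Its relative Clec10a had 188 CPM in Mg-TAGelMA and 253 CPM in Mg members (0.741). Of 14 measured C-type lectin and Fc receptor genes 0 were higher and 1 was lower, Cd209d, with 13.5 and 54.6 CPM (4.05-fold lower, 2.01 to 9.02, but within the rule with short-intron scaling, in cDC2-marked members alone and without called doublets). The median was −0.09. The list of dendritic cell identity genes had a median of 0.03, with 3 of 20 higher (Relb, Bcl6 and Nfil3, above) and 0 lower. Over all 8843 genes measured, 509 were higher. Clec4e, a lectin that senses mycobacterial glycolipid, had 48.6 CPM in Mg-TAGelMA and 11.2 CPM in Mg members and was past the rule with short-intron scaling.

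Immediate early genes, which cells switch on within minutes of a stimulus, moved in both directions. Of 21 measured genes 2 were higher, 2 were lower and the median log2 ratio was −0.43. Egr1 had 47 UMIs in 17 of 51 Mg-TAGelMA members (63.4 CPM) and 537 UMIs in 36 of 65 Mg members (667 CPM), 10.5-fold lower (interval 7.79 to 14.5), while other kept barcodes had 134 and 122 CPM, a ratio of 1.10. After thinning, Egr1 was found in 13.7% of Mg-TAGelMA and 53.2% of Mg members, and in 16.8% and 17.3% of T-marked barcodes, so the Mg-TAGelMA share did not exceed that of T-marked barcodes. Per member the highest values were 16.7 UMIs per 10000 with Mg-TAGelMA and 48.0 with Mg, and the ranges overlapped from 0 upwards. Among cDC2-marked members Egr1 stood at 70.1 CPM with Mg-TAGelMA and 922 CPM with Mg, among cDC1-marked members at 118 and 19.9 CPM, which is the opposite order on 5 and 6 barcodes. Flt3-only members, among them the stem-marked ones, had 68.9 and 719 CPM of Egr1, and those with both marks 6.84 and 179 CPM. Monocyte-marked barcodes had 37.4 and 156 CPM of Egr1 and Siglech-marked ones 16.9 and 109 CPM, so Egr1 was lower with Mg-TAGelMA in these groups too. Btg2, an anti-proliferative early gene, had 427 and 1136 CPM (2.66-fold lower, 2.34 to 3.04), but was 2.22-fold lower and within the rule with short-intron scaling. Fos had 552 and 1180 CPM (0.468), Jun 471 and 925 CPM (0.509), Zfp36 490 and 1072 CPM (0.457) and Dusp1 234 and 507 CPM (0.461), all within the size rule, while Jund had 921 and 790 CPM (1.17) and Atf3 540 and 572 CPM (0.943). Monocyte-marked barcodes had 439 CPM of Fos with Mg-TAGelMA and 1195 CPM with Mg, 335 and 1000 of Zfp36, and 212 and 712 of Btg2. Siglech-marked ones had 190 and 408 CPM of Fos, 220 and 306 of Zfp36, and 181 and 491 of Btg2. T-marked ones went the other way, with 293 and 110, 169 and 136, and 340 and 278 CPM of these genes. The higher pair of early genes in members were the nuclear receptors Nr4a2 (212 and 57.1 CPM, 13.1 kb) and Nr4a3 (82.3 CPM and 0 UMIs, 35.3 kb).

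Ccnd1, cyclin D1, was among the 10 lowest ratios, with 28 UMIs in 16 Mg-TAGelMA members (37.8 CPM) and 177 UMIs in 35 Mg members (220 CPM), 5.82-fold lower (interval 3.89 to 9.0), against a ratio of 0.667 in other kept barcodes. Proliferation genes had a median log2 ratio of −1.13, with 0 of 25 higher and 3 lower, Mki67, Ccna2 and Cenpe. Mki67, the proliferation antigen, had 58.0 CPM in Mg-TAGelMA and 247 CPM in Mg members (4.26-fold lower, 3.05 to 6.07), and it was 4.56-fold lower in other kept barcodes. At least 5 UMIs of Mki67 and Top2a together were found in 6 of 51 Mg-TAGelMA and 10 of 65 Mg members, a ratio of 0.765 (0.228 to 2.32). Histone genes and Lars2 also filled the lowest ranks, with Hist1h3c at 2.70 CPM in Mg-TAGelMA and 68.3 CPM in Mg members and Lars2 at 67.5 and 1134 CPM, and they were 19.4-fold and 23.9-fold lower in other kept barcodes as well. Lyz1 was 20.2-fold lower (7.63 to 75.9), with 67.0% of its Mg UMIs in a single member, and Trim56 10.6-fold lower (3.86 to 40.5), with other kept barcodes 4.27-fold lower. Of 22 measured interferon response genes 1 was higher and 0 lower, with a median log2 ratio of 1.12. Ifit2 was that gene, with 38 UMIs in 6 Mg-TAGelMA members and 9 UMIs in 6 Mg members (4.59-fold, 2.18 to 10.8, 21.8 kb, and within the rule when each member was weighted equally), and Ifitm3 had 2696 and 1844 CPM (1.46), with 3.11 in other kept barcodes. Of 15 measured Toll-like receptor and adaptor genes 0 were past the size rule over all genes, with a median of −0.42, and Cd14 was higher with short-intron scaling, with 78.3 and 26.1 CPM (3.0-fold, 1.80 to 5.21).

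Markers of other cell types also differed between the nails. Apart from the 9 neutrophil markers, Ctsg, a granule protease, had 445 CPM in Mg-TAGelMA members and 73.3 CPM in Mg members, with 62.1% and 74.6% of its UMIs in a single member of each library. Nkg7, a granule protein of cytotoxic cells, had 135 and 24.8 CPM, with 54% of its Mg-TAGelMA UMIs in a single member. Hdc and Cpa3, genes of basophils and mast cells, had 66.1 and 52.6 CPM in Mg-TAGelMA and 6.21 and 7.45 CPM in Mg members. A single member held 94.9% of the Mg-TAGelMA Cpa3, and the Cpa3 ratio turned the other way without Flt3 in the member rule (log2 ratio −1.36). The haemoglobin gene Hba-a1 had 68.8 CPM in Mg-TAGelMA and 233 CPM in Mg members, and 924 and 11370 CPM in other kept barcodes. Vpreb3, a gene of B cell precursors, had 12.2 and 58.4 CPM in members and was 4.32-fold lower in other kept barcodes. The part of RNA from these other cells in the members' values was not tested.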

How the data were processed

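Droplet single-cell RNA was measured in 2 mouse libraries, 1 per nail. The values are UMI counts as deposited, not normalized, and the lists of genes and barcodes hold no measurements. Cell Ranger made the counts, per the file headers, in version 7.0.1 (Mg-TAGelMA) and 5.0.0 (Mg). The submitters' processing notes name STAR and mm10. Whether intronic reads were counted is not given in the sources used here.

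A barcode was kept when it had 200 or more genes detected and no more than 15% of UMIs from mitochondrial genes. Doublets were scored with scrublet (scanpy 1.11.5) and marked, not removed. Raw counts were summed per library and group and scaled to CPM. Ratios carry exact conditional binomial 95% intervals (scipy 1.17.1), and a count of 0 was set to 3 for a lower bound. This floor also entered the list medians. There a gene with 0 UMIs on the side with the smaller total can score as higher on that side. No test was made, because cells are not replicates, and the ratio code was tested on simulated data. List medians use genes with at least 10 CPM in either library. Genes named were the 10 highest and 10 lowest past the size rule. In each list they were up to 4 past the rule and the 3 with the highest CPM. The ranked genes left out immunoglobulin, T cell receptor, haemoglobin, mitochondrial, ribosomal, sex-linked and unnamed genes. Between nails they also left out genes under 25% of their all-barcode CPM, a limit not set on list genes such as Cxcl2. Other genes were named after their values were seen. Of 378 listed genes 370 were in the table, and the others were not analysed here. Intron lengths came from GENCODE vM21, matched for 32235 of 32285 genes. TMM (edgeR 4.0.16) and size factors (DESeq2 1.42.0) were alternative scalings. The members and lists were chosen with earlier results of these data known.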

Additional observations from a re-analysis of the deposited data

How the results depend on the processing

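No paired analysis was possible because each nail has 1 library, which also leaves no replicate to leave out. Thinning moved the member share to 0.348% in the Mg-TAGelMA and 0.508% in the Mg library at 2000 UMIs and to 0.164% and 0.312% at 1000 UMIs, with a ratio of 0.524 at 1000 UMIs; the Mg-TAGelMA cDC1-marked share at 2000 UMIs was 4.35%, 1 of 23. Genes lower in Mg-TAGelMA members numbered 25 with a minimum of 100 CPM, 61 with no minimum and 136 with a fold bound of 1.5; among short-intron genes 58 were higher and 19 lower, fewer genes being tested. Genes higher and lower in cDC1-marked members in both libraries numbered 5 and 34 with TMM, 21 and 37 with a fold bound of 1.5, and 17 and 26 with at least 2 UMIs per mark; 14 were higher among members with at least 10 Cd74 UMIs, an alternative chosen after seeing the data. With a minimum of 100 CPM, 18 genes were higher in members than in monocyte-marked barcodes. The log2 ratio of Cpa3 between nails, 2.82 as reported, turned to −1.36 without Flt3 in the rule and −1.43 with at least 10 Cd74 UMIs; the cause was not tested. Of 1505 values of named genes between nails 1384 kept their call, and of 239 within libraries 218 did; 37 of 207 list medians and 19 of 107 main values moved. Depth limits most member genes to a few UMIs per barcode, and 5 or 6 cDC1-marked barcodes per library leave wide intervals.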
